A study of Mus musculus with 4 samples.

Results

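The library titled CD74 was compared with the library titled CD163, gene by gene, in cells labelled as macrophages and sorted from mouse hearts under pressure overload. The comparison takes 2 of the 4 libraries in the series, chosen by their titles, with 1 array each, and covers 19505 genes. All animals were C57BL/6N mice, labelled wild type, 15 to 16 weeks old, that had undergone transverse aortic constriction (TAC), a surgical band on the aorta against which the left ventricle must pump. Per the growth protocol, cells from 6 hearts were mixed before sorting by FACS, so that every library is a pool of animals and no unoperated heart is among the samples used here. The remaining libraries, titled Ccrl2 and Trem2, came from the same mixture and are given beside the pair for reference. The labels conflict for both members of the pair. The library titled CD74 has CD9 in its source name, the population titled CD163 is listed as Lyve1+ in the growth protocol, and the time after surgery is 8 weeks in the source names and 1 week in that protocol. With 1 array per population there is no replicate, no test and no error for any difference below, and precision is limited by the single array.

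The heart holds macrophages of embryonic and of monocyte origin. Long-lived resident macrophages carry scavenger and uptake receptors such as LYVE1, CD163, MRC1, FOLR2 and TIMD4, clear dying cells and cell debris, and digest them in lysosomes. Cells with abundant major histocompatibility complex (MHC) class II, whose invariant chain is CD74, present peptides to CD4 T cells and are in part renewed from CCR2+ blood monocytes. B cells and dendritic cells also carry class II and its invariant chain.

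All values are the deposited log2 values, on which 1 unit is a 2-fold difference. The background ceiling of a library is the 95th percentile of its values for 1498 chemosensory receptor and keratin-associated protein genes, and a gene above it is called measured. Both arrays of the pair had high ceilings, 6.53 in CD74 and 6.28 in CD163 against 5.67 in Ccrl2 and 5.51 in Trem2, and fewer measured genes, 3621 and 4984 against 7454 and 8144. The top of the scale, 19.93, was reached by 9 genes in CD74 and 16 in CD163. A gene was called higher in a library when it was measured there and lay at least 1 unit above the other library, whose value was raised to its ceiling where it lay below. Where the dimmer value was below its ceiling, or the brighter one at the top of the scale, the difference is a lower bound, and its size is given as "at least". Medians over a list are given first on the deposited values and then, as the bounded median, with dim values raised to the ceiling and genes dim in both libraries at 0.

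The CD163 library was brighter in many more genes, and by more, than the CD74 library. Of the 5842 genes measured in at least 1 of the pair, 583 (9.98%) were called higher in CD74 and 1130 (19.3%) higher in CD163. As a share of all 19505 genes these calls were 2.99% and 5.79%. Differences of at least 16-fold numbered 40 toward CD74 and 148 toward CD163. The median difference, CD74 minus CD163, was -0.05 over all genes and -0.14 over the 2763 measured in both libraries. Over those measured in at least 1 it was -0.47, or -0.09 with dim values raised to the ceiling. That last set leans toward CD163 by its making, since 2221 genes entered it through CD163 alone and 858 through CD74 alone. Bright genes were called more often. Among 1040 genes with a mean over the Ccrl2 and Trem2 libraries above 10, 18.4% were higher in CD74 and 50.8% higher in CD163, with a median difference of -1.09, and these shares are the ones to read beside lists of bright macrophage genes. Of the 1498 background genes, 13 were called higher in CD74 and 1 higher in CD163. The excess toward CD163 depended on scaling: calls toward CD74 made up 34.0% of all calls on the deposited values and 53.5% (1125 against 978) after quantile normalization of the 4 columns.

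**Figure D1:**
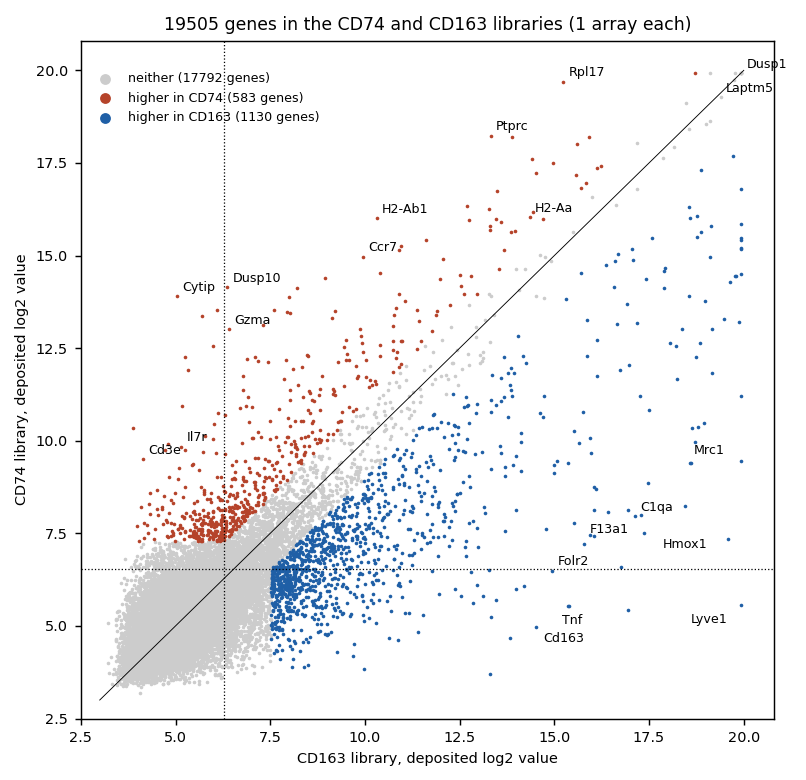
Deposited log2 value of each of 19505 genes in the CD163 library (x axis) and the CD74 library (y axis), 1 array each; dotted lines are the background ceilings (6.28 and 6.53), the solid line marks equal values, red marks the 583 genes called higher in CD74 and blue the 1130 called higher in CD163. The blue genes reach farther from the line than the red, with Lyve1 at 19.93 against 5.56 at the extreme.

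Transcripts of the sort markers separated the pair on the CD163 side. Cd163, which encodes the receptor for haemoglobin complexes, had 14.51 in CD163 against 4.96 in CD74, where it lay below the ceiling, and the Ccrl2 and Trem2 libraries had 13.01 and 13.11. It was at least 7.98 units higher in CD163. Lyve1, which encodes a hyaluronan receptor, was at the top (19.93) in CD163, stayed under the ceiling (5.56) in CD74 and had 13.88 in Ccrl2 and 14.32 in Trem2. Over all genes this was the widest gap between the pair, at least 13.40 units. Cd9, a tetraspanin gene and the marker in the source name of the CD74 library, had 8.69 there and 9.35 in CD163, against 10.79 in Ccrl2 and 11.65 in Trem2. Its value in the library labelled CD9+ was thus the lowest of the 4 and lay within 2-fold of CD163. Ccrl2 had 9.58 in CD74 and 14.00 in CD163, and Trem2 had 5.94, below the ceiling, and 6.71. The gene Cd74 was not analysed here.

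The label of macrophage was checked against defining genes in each library. Pan-macrophage genes were above the ceiling for 14 of 19 in CD74 and for 19 of 19 in CD163. Of these 19, 17 were higher in CD163 and 0 in CD74 (median -3.09, bounded -2.81). Csf1r, a defining gene of the list, had 9.40 in CD74 and 18.60 in CD163. In CD74, Lyz2, which encodes lysozyme, had 15.86 and Adgre1, the gene of a macrophage adhesion receptor, had 9.66, while Fcgr1, which encodes the high-affinity receptor for IgG, lay below the ceiling at 5.12. The CD163 library had 19.93, 13.60 and 7.68 for the same genes. Alongside these, the T cell receptor subunit genes Cd3e, Cd3d and Cd3g were above the ceiling in CD74 (9.50, 7.62 and 7.62) and below it in CD163 (4.13, 5.06 and 5.06), Ccrl2 (4.56, 4.88 and 4.52) and Trem2 (4.55, 5.23 and 4.73). For the CD74 library these genes thus bear out the label of macrophage only in part. In these bulk libraries, fewer cells of a type and less RNA per cell cannot be told apart.

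**Figure D2:**
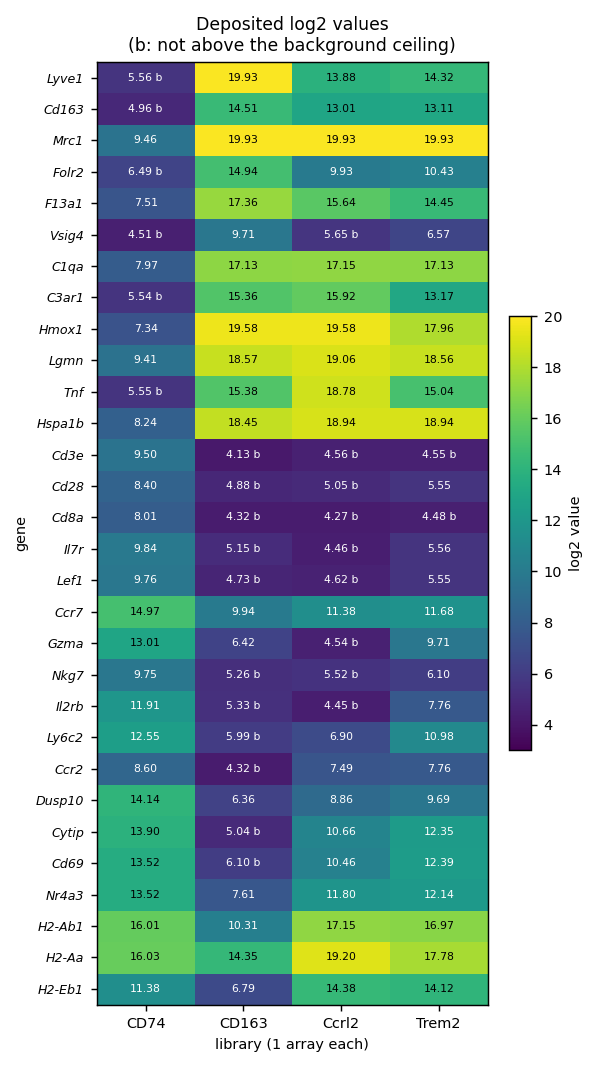
Deposited log2 values of 30 genes (rows) in the 4 libraries (columns, 1 array each), with b beside a value not above that library's background ceiling and brighter colours for higher values. Resident macrophage and macrophage function genes (Lyve1 to Hspa1b, upper rows) are darker in CD74 than in CD163. The T cell, cytotoxic and memory genes shown (Cd3e to Il2rb) have their highest values in CD74.

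Genes of resident cardiac macrophages were higher in CD163 in nearly the whole list. This was not particular to them, as 17 of 19 pan-macrophage genes were also higher in CD163 and 0 in CD74. Of 24 with a probe set, 22 were measured in at least 1 of the pair, 21 were higher in CD163 and 0 higher in CD74, with a median difference of -4.43 over all 24 (bounded -3.91). Of bright genes, 50.8% were called toward CD163. Mrc1, the mannose receptor gene, had 9.46 in CD74 and 19.93 in CD163, Ccrl2 and Trem2, so that CD74 was the one library below the top of the scale. Folr2, a folate receptor gene, had 14.94 in CD163 against 6.49, below the ceiling, in CD74, 9.93 in Ccrl2 and 10.43 in Trem2. Here CD163 stood above all 3 others. F13a1, which encodes a coagulation factor chain, had 7.51 in CD74 and 17.36 in CD163, against 15.64 in Ccrl2 and 14.45 in Trem2. Cbr2, a carbonyl reductase gene, had 3.69, below the ceiling, in CD74 against 13.29, 12.95 and 12.17. For Mrc1, F13a1 and Cbr2 the CD74 library was therefore the one that stood apart, whereas for Folr2 and Lyve1 the CD163 library did as well. The 3 genes without a call were Fcna (4.64 against 6.50), Cd209f (4.38 against 5.99) and Cd209g (4.90 against 5.73).

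Uptake, opsonin and digestion genes had more calls toward CD163 than toward CD74. In the complement, efferocytosis and scavenger receptor lists the share called toward CD163 exceeded the 19.3% of measured genes. It did not exceed the 50.8% of bright genes, though these lists also hold dim genes. C1qa, C1qb and C1qc, the chains of complement C1q, had 7.97, 8.12 and 7.79 in CD74 against 17.13, 16.94 and 15.51 in CD163. In Ccrl2 they had 17.15, 17.37 and 15.85 and in Trem2 17.13, 17.01 and 15.01, close to CD163. Of 19 complement genes, 9 were higher in CD163 and 1 in CD74 (median -1.79, bounded -0.68). The exception was Cd55, which encodes a membrane inhibitor of complement, with 10.14 in CD74 and 5.79, below the ceiling, in CD163. C3ar1, a receptor for a complement fragment, was below the ceiling in CD74 (5.54) and at 15.36 in CD163, 15.92 in Ccrl2 and 13.17 in Trem2. Among 20 efferocytosis genes, for the uptake of dying cells, 10 were higher in CD163 and 1 in CD74 (median -1.94, bounded -1.20). Gas6, a bridging ligand of the TAM receptors, had 6.45, below the ceiling, against 12.81, and Abca1, a lipid exporter gene, 7.12 against 12.99. Scavenger and lectin receptor genes gave 11 of 23 higher in CD163 and 2 in CD74 (median -1.61, bounded -0.90). Those 2 were the lectin genes Clec4d (7.86 against 5.60, below the ceiling) and Clec4e (8.60 against 6.63).

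The lysosome list had 16 of 26 members higher in CD163 and 0 higher in CD74 (median -2.50, bounded -1.29). Toward CD163 the share called was 19.3% over measured genes and 50.8% over bright genes. Lgmn, which encodes the protease legumain, had 9.41 in CD74 and 18.57 in CD163, with 19.06 in Ccrl2 and 18.56 in Trem2. Ctsb, the cathepsin B gene, had 11.22 against the top of the scale in CD163, and Ctsc 13.20 against 19.88. Grn, the progranulin gene, had 8.00 against 17.29. Of 18 genes of iron handling, 5 were higher in CD163 and 0 in CD74 (median -0.90, bounded -0.04), so that most of the list did not differ by the rule used. It held the second widest gap of the comparison. Hmox1, the gene of haem oxygenase, which breaks down haem, had 7.34 in CD74 and 19.58 in CD163, with 19.58 in Ccrl2 and 17.96 in Trem2. Fth1, the ferritin heavy chain gene, was at the top of the scale in all 4 libraries and carries no comparison.

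Genes of receptors for antibody and of microbial sensors were called mostly toward CD163. In both lists the share called toward CD163 exceeded the 19.3% of measured genes. For the sensors it was below the 50.8% of bright genes. Of 19 genes for Fc receptors and their signalling partners, 14 were higher in CD163 and 0 in CD74 (median -2.54, bounded -2.48). Fcgr3 and Fcgr2b, the genes of the low-affinity IgG receptors, had 10.47 and 11.68 in CD74 against 18.95 and 18.24 in CD163. Of 19 Toll-like receptor genes and adaptors, 8 were higher in CD163 and 1, the adaptor gene Myd88, in CD74 (median -2.07, bounded -0.61). Tlr7, which encodes a sensor of single-stranded RNA, had 8.87 against 17.48, and Tlr2 had 7.77 against 12.75.

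Chemokine ligand genes were called mostly toward CD163, and NF-kB targets in both directions. In both lists the share called toward CD163 was near the 50.8% of bright genes and above the 19.3% of measured genes. Of 25 chemokine ligand genes, 14 were higher in CD163 and 1 in CD74 (median -2.74, bounded -1.78). Ccl6 had 8.75 in CD74 and 16.06 in CD163, against 12.63 in Ccrl2 and 13.82 in Trem2, and Cxcl10, an interferon-induced ligand gene, had 8.14, 16.06, 19.46 and 18.03. The one ligand gene higher in CD74 was Ccl5, a product of T and NK cells as well as myeloid cells, with 10.93 against 6.86. Inflammatory NF-kB targets were higher in CD163 in 15 of 29 cases and in CD74 in 3 (median -1.18, bounded -1.07). Tnf was below the ceiling in CD74 (5.55) and at 15.38 in CD163. The 3 others, Il1b (16.33 against 12.69), the NF-kB subunit gene Rel (15.90 against 13.59) and Clec4e, ran opposite to it, with Il1b at 17.11 in Ccrl2 and 18.34 in Trem2.

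Immediate early genes, transcribed within minutes of a stimulus and of tissue digestion, were called in both directions. Of 25, 16 were higher in CD163 and 3 in CD74 (median and bounded median -1.58, and median -0.88 after quantile normalization of the 4 columns, with 12 and 3 called). Jun, Fosb and Egr1, of the AP-1 and EGR families, had 12.27, 11.20 and 14.44 in CD74 against 18.74, 17.27 and 19.79 in CD163, whereas Junb was within 2-fold (12.81 against 12.94) and Fosl1, Fosl2 and Egr3 had no call either. The 3 genes of the other direction were the whole NR4A family of orphan nuclear receptors, which T cell receptor signalling also induces. Nr4a3 had 13.52 in CD74 and 7.61 in CD163, with 11.80 in Ccrl2 and 12.14 in Trem2. Nr4a2 had 11.75 against 6.79 and Nr4a1 12.39 against 10.85. For Nr4a2 and Nr4a3 the CD74 value was the highest of the 4 libraries, and for Nr4a1 the Ccrl2 value (15.57) was. Heat shock genes were higher in CD163 in 12 of 17 cases and in CD74 in 0 (median and bounded median -2.04), with Hspa1b, a stress-induced chaperone gene, at 8.24 against 18.45. Of bright genes, 50.8% were called toward CD163 and 18.4% toward CD74, the shares to read beside these lists. 

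**Figure D3:**
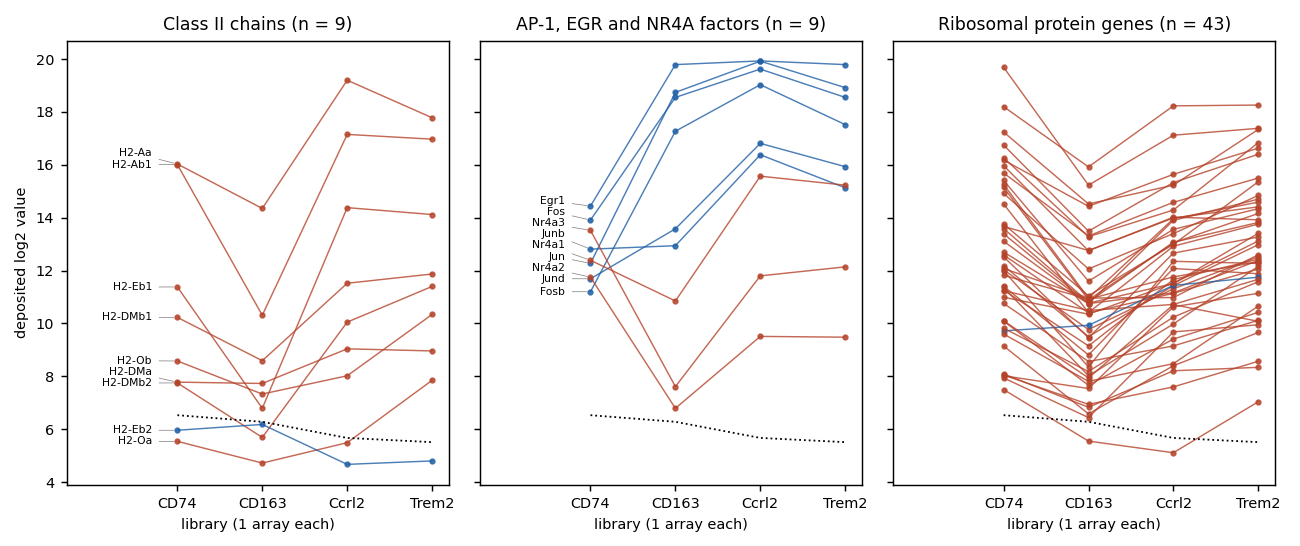
Deposited log2 values (y axis) of 9 class II chain genes, 9 genes of the AP-1, EGR and NR4A families and 43 ribosomal protein genes in the 4 libraries (x axis, 1 array each); each line joins 1 gene, red where CD74 lies above CD163 and blue where it lies below, and the dotted line is the background ceiling. Jun, Fos, Fosb and Egr1 run upward from CD74 to CD163, Junb is nearly level and NR4A genes run downward. All but 1 of the ribosomal protein genes lie lower in CD163 than in CD74.

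Regulators of leukocyte signalling and migration were among the 15 genes with the largest differences toward CD74. Dusp10, which encodes a phosphatase of stress-activated MAP kinases, had 14.14 in CD74 and 6.36 in CD163, with 8.86 in Ccrl2 and 9.69 in Trem2. Cytip, a regulator of leukocyte adhesion, had 13.90 in CD74 and 5.04, below the ceiling, in CD163, a difference of at least 7.62 units. Cd69, an early activation antigen of lymphocytes, had 13.52 in CD74, 10.46 in Ccrl2, 12.39 in Trem2 and 6.10, below the ceiling, in CD163. Dusp5, a phosphatase gene of the ERK pathway, had 13.36, 8.86, 11.38 and, also below the ceiling, 5.71. In these 4 genes CD163 was the lowest of the 4 libraries and CD74 the highest. Dock2, which encodes an activator of Rac in migrating leukocytes, and Arhgap15, which encodes a Rac inhibitor, had 13.48 and 14.40 against 7.95 and 8.95. Ptprc, which encodes the common leukocyte phosphatase, had 18.24 in CD74 and 13.32 in CD163, against 17.09 in Ccrl2 and 17.96 in Trem2.

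Genes of the T cell receptor complex and its signalling were above the ceiling in CD74 more often than in the other libraries. Of 19 with a probe set, 11 were above the ceiling in CD74 and 2 in CD163, against 2 in Ccrl2 and 4 in Trem2. In all, 10 were higher in CD74 and 0 in CD163, with a median difference of 1.95 on deposited values and 1.34 with dim values raised to the ceiling. Toward CD74 the share called was 2.99% over all genes and 9.98% over measured genes. Cd3e was at least 3.22 units higher in CD74. Cd28, a costimulatory receptor gene, had 8.40 against 4.88, below the ceiling, and the coreceptor genes Cd8a and Cd4 had 8.01 and 9.35 against 4.32, below the ceiling, and 6.48. The 9 members without a call included Cd5, Cd6 and Zap70, below the ceiling in both libraries with 5.85, 5.39 and 5.80 in CD74.

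Cytotoxic genes were fewer but some were bright. Of 27, 9 were higher in CD74 and 0 in CD163, and 17 were below the ceiling in both libraries (median 1.59 on deposited values, 0.00 with dim values raised). Over all genes 2.99% were called toward CD74. Gzma, a granzyme gene, had 13.01 in CD74, 6.42 in CD163, 4.54, below the ceiling, in Ccrl2 and 9.71 in Trem2. Il2rb, a subunit of the interleukin-2 receptor, had 11.91 in CD74 and 5.33, below the ceiling, in CD163, with 4.45, below the ceiling, in Ccrl2 and 7.76 in Trem2. Nkg7, a granule membrane protein gene of cytotoxic cells, had 9.75 against 5.26. The defining NK cell gene Ncr1 lay just below the ceiling in CD74 (6.48), and Prf1, the perforin gene, did too (6.27).

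Among naive and memory lymphocyte genes, 9 of 17 were higher in CD74 and 2 in CD163 (median 3.24, bounded 1.78). Over measured genes 9.98% were called toward CD74 and 19.3% toward CD163. Il7r, a survival receptor gene, had 9.84 in CD74 and 5.15, 4.46 and 5.56 in CD163, Ccrl2 and Trem2. Lef1, a transcription factor gene of naive T cells, had 9.76 against 4.73, 4.62 and 5.55. Both were thus near background outside CD74. Ccr7, the lymph node homing receptor gene, had 14.97 against 9.94, 11.38 and 11.68, and Ets1, Satb1 and Dgka had 12.13, 10.75 and 12.16 in CD74 against 7.44, 6.11 (below the ceiling) and 7.19 in CD163. The 2 members higher in CD163 were Klf2 (12.08 against 10.11) and Igfbp4 (9.73 against 7.61). Of 8 GIMAP genes, which encode lymphocyte GTPases, 2 were higher in CD74, Gimap4 (10.23 against 7.19) and Gimap6 (10.46 against 6.01, below the ceiling).

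Monocyte genes were higher in CD74 in 6 of 20 cases and in CD163 in 1 (median 0.82, bounded 0.00, with 8 measured in either). The share of all genes called toward CD74 was 2.99%. Ly6c2, which encodes a surface antigen of classical monocytes that memory CD8 T cells also carry, had 12.55 in CD74, 5.99, below the ceiling, in CD163, 6.90 in Ccrl2 and 10.98 in Trem2. Ccr2, the monocyte chemokine receptor gene, had 8.60 against 4.32, 7.49 and 7.76, and Plac8 9.65 against 6.30, 8.22 and 12.52. Chil3 and Vcan, also monocyte genes, were below the ceiling in both libraries, with 5.20 and 4.37 in CD74. In B cell genes 1 of 15 was higher in CD74 (median 0.73, bounded 0.11). With 9 of the list measured, this share was near the 9.98% of all measured genes. It was Cd79a, which encodes a B cell receptor chain, with 10.70 against 6.31 and 11.80 in Trem2, while Ms4a1, a B cell surface antigen gene, was at 6.57, just above the CD74 ceiling, against 4.48. Neutrophil genes gave 0 calls in either direction among 16 on the deposited values and 2 toward CD74 after quantile normalization of the 4 columns, with S100a8 and S100a9 at 6.81 and 6.84 in CD74 and 4.66 and 5.99, below the ceiling, in CD163. Dendritic cell genes gave 1 call each way among 20, and Flt3, Zbtb46 and Xcr1 were below the ceiling in both libraries. Some markers of T cells, cytotoxic cells and monocytes thus lay higher in the CD74 library, and their part in the other differences was not tested.

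**Figure D4:**
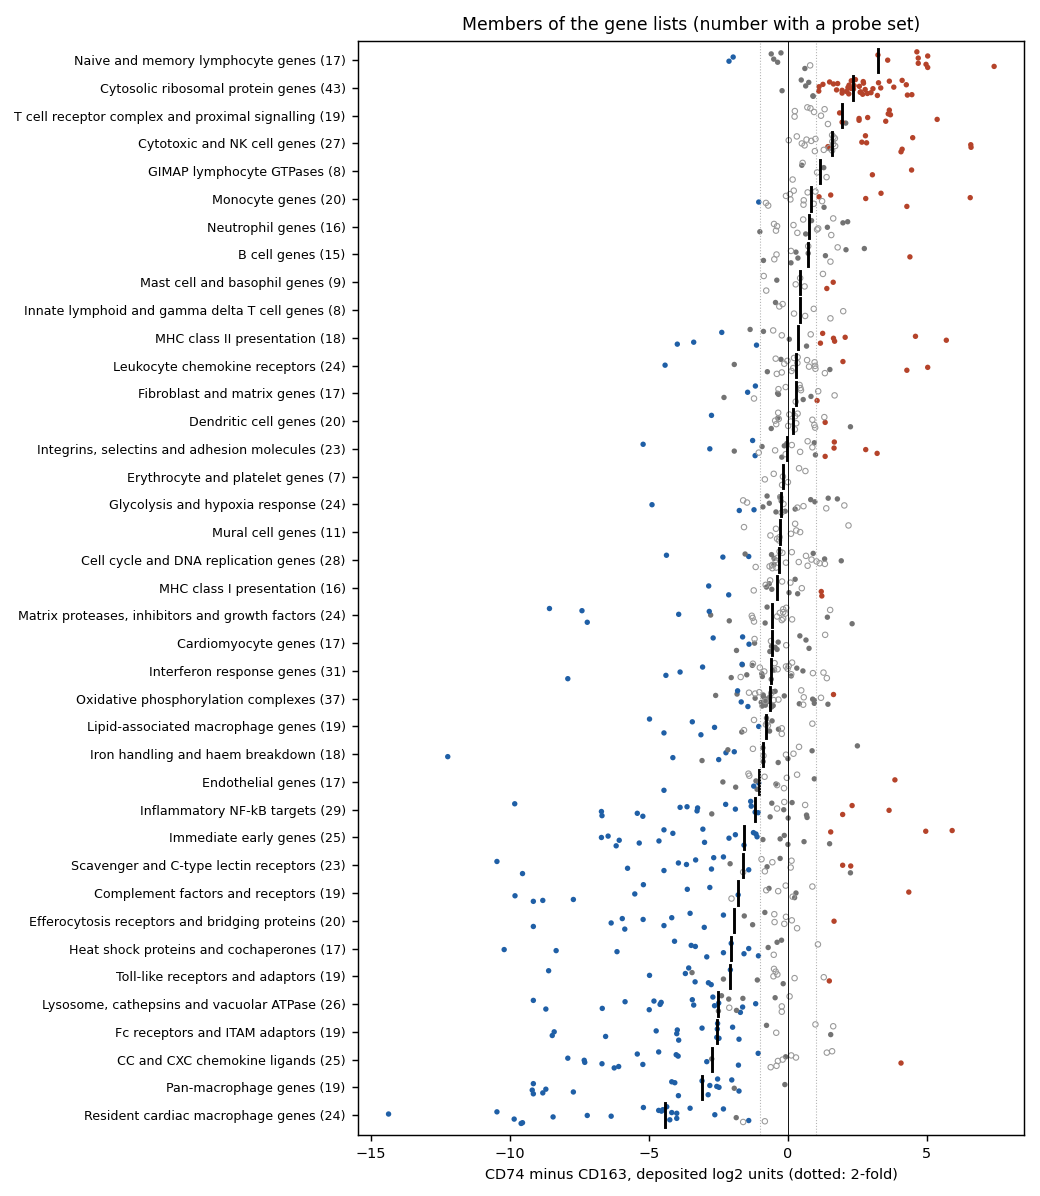
CD74 minus CD163 in deposited log2 units (x axis) for each member of 39 gene lists (y axis, with the number of members that have a probe set); filled points were above the ceiling in at least 1 of the pair, open points in neither, red and blue mark genes called higher in CD74 and in CD163, and black bars are list medians over all members. The medians run from -4.43 for resident macrophage genes to 3.24 for naive and memory lymphocyte genes.

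Class II genes divided between the chains and the rest of the list. Of 18 presentation genes 7 were higher in CD74, all of them class II chains or the regulator gene Ciita, and 4 were higher in CD163, namely the processing enzyme genes Ctss and Ifi30 and the costimulatory ligand genes Cd80 and Cd86 (median 0.36, bounded 0.02). H2-Ab1, the beta chain gene of I-A, had 16.01 in CD74 and 10.31 in CD163, against 17.15 in Ccrl2 and 16.97 in Trem2, which leaves CD163 alone at the low end. H2-Aa, the alpha chain gene of the same molecule, had 16.03, 14.35, 19.20 and 17.78. The gap between the pair was 5.70 units for the beta chain and 1.68 for the alpha chain. H2-Eb1 had 11.38 against 6.79, with 14.38 and 14.12 in the others. The peptide-loading genes H2-DMb1, H2-DMb2 and H2-Ob had 10.23, 7.75 and 8.58 in CD74 against 8.59, 5.69 (below the ceiling) and 7.33 in CD163, and Ciita, the class II transactivator gene, 8.09 against 6.92. H2-DMa was equal in both (7.78 and 7.73). Cd86 had 6.80 in CD74 against 10.78 in CD163, and Ctss 12.73 against 16.12. H2-DMb1 and H2-DMb2 are near-identical genes and may share signal.

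Class II promoters are known for a shared upstream module that ends in the Y box, the sequence CCAAT or its complement ATTGG, bound by NF-Y. Promoter windows from RefSeq (build GRCm38.p6) were held for 8 of 9 class II chain genes, and not for H2-Ab1. Within 150 bases before the start, 7 of these 8 genes contained CCAAT on either strand, against 24.5% of 32851 promoter windows of that length. The 8 genes had 9 windows, and H2-DMa held no match of that length in either of its own. The 5 windows of genes called higher in CD74 are shown, 150 to 1 bases before the start, 5′ to 3′ on the strand of the gene, with each match in capitals.
H2-Aa (chr17:34287824-34287973, minus strand): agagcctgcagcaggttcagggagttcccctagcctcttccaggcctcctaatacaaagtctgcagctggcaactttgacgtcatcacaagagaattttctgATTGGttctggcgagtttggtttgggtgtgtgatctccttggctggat
H2-Eb1 (chr17:34305717-34305866, plus strand): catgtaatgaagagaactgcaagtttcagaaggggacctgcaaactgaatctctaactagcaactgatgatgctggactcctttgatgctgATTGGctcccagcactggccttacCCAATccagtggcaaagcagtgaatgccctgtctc
H2-DMb1 (chr17:34153041-34153190, plus strand): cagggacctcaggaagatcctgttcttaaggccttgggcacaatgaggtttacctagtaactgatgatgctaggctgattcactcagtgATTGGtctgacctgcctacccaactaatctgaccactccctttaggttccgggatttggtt
H2-DMb2 (chr17:34145099-34145248, plus strand): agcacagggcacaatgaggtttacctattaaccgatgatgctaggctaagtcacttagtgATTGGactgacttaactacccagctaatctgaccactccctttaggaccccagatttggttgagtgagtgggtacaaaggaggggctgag
H2-Ob (chr17:34238755-34238904, plus strand): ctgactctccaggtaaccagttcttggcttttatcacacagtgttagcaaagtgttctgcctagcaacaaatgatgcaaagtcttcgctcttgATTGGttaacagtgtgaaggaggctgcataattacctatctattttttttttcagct
The first match began 48 bases before the start in H2-Aa, 59 in H2-Eb1, 61 in H2-DMb1, 90 in H2-DMb2 and 57 in H2-Ob, and H2-Eb1 held a second match in the other orientation. A match describes these letters and is no measured binding site.

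The motif GAGGAA, the core bound by the macrophage factor PU.1, was searched on both strands in the resident macrophage genes. PU.1 is encoded by Spi1, which had 17.70 in CD74 and 19.72 in CD163. Of 20 resident macrophage genes with windows, 9 held the motif within 250 bases before the start. Counted by window this was 10 of 24, against 23.3% of all windows. Cd163, Folr2, Timd4, Gas6 and Mertk were among the genes without a match. Mrc1 and Vsig4, both higher in CD163, are shown as for the class II genes.
Mrc1 (chr2:14229264-14229413, plus strand): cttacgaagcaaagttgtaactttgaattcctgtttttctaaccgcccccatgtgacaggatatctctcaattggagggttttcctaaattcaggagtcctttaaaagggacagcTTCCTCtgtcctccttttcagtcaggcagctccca
Vsig4 (chrX:96293439-96293588, minus strand): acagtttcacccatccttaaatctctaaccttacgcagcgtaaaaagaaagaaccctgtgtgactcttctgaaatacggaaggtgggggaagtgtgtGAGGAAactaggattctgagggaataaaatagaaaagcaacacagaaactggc
Vsig4, which encodes a complement receptor, had 4.51, below the ceiling, in CD74 and 9.71 in CD163.

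Among the 39 lists, the ribosomal protein genes had the largest share of members higher in CD74, a share that was 18.4% over bright genes. Of 43 with a probe set, 37 were higher in CD74 and 0 in CD163, with a median and bounded median of 2.36, and after quantile normalization 42 were higher with a median of 3.25. Rpl17 had 19.69 in CD74 and 15.23 in CD163, against 17.12 in Ccrl2 and 17.38 in Trem2. Rpl15 had 15.26 against 10.96 and Rps18 15.15 against 10.89. Rpl37 was the one gene of the list with a lower value in CD74 (9.72 against 9.93), within 2-fold. The median level of the list was 12.19 in CD74 and 10.41 in CD163, against 11.66 in Ccrl2 and 12.60 in Trem2, so that CD163 was the lowest and CD74 did not exceed Trem2. Ribosomal protein genes have many near-identical processed copies in the genome, with which the probe sets may share signal.

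Genes of cell types of the surrounding tissue were called in small numbers, but few were measured: 10 endothelial, 8 fibroblast and 13 cardiomyocyte genes. Toward CD163 the share called was 5.79% over all genes and 19.3% over measured genes. Toward CD74 it was 2.99% and 9.98%. Of 17 endothelial genes 3 were higher in CD163, among them Eng (8.04 against 6.81), and 1, Ly6c1, in CD74 (11.95 against 8.10), which lymphocytes also express. Fibroblast genes gave 2 calls toward CD163 and 1 toward CD74 among 17, with Dcn, the decorin gene, at 4.71 and 7.01 in the pair and 12.65 and 12.67 in Ccrl2 and Trem2. Of 17 cardiomyocyte genes, 3 were higher in CD163, among them Myl2, a myosin light chain gene (11.04 against 9.64), and 7 were above the ceiling in CD74 and 13 in CD163. After quantile normalization of the 4 columns 3 cardiomyocyte genes were higher in CD74 and 2 in CD163, and Myl2 was no longer called (-0.57). Of 11 mural cell genes and 7 erythrocyte and platelet genes, 0 were above the ceiling in either library.

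Some bright genes had near-equal values in the pair. Leaving out genes at the top of the scale and the classes not ranked, such as predicted and unnamed genes, 471 were measured in both and within 0.20 units of each other, and the brightest of these were Ly6e, with 19.74 in CD74 and CD163, Laptm5, a lysosomal protein gene of leukocytes, with 19.28 and 19.39, and Pfn1, the profilin gene, with 18.43 and 18.56. Morf4l1, Pcbp2 and Ppia followed at 15.63, 14.84 and 14.95 against 15.48, 14.91 and 14.76. Equality is a matter of scaling for such genes: after quantile normalization of the 4 columns Morf4l1, Pcbp2 and Ppia lay 1.27, 1.05 and 1.23 above CD163 in the CD74 library. Ly6e had the same 19.74 in Trem2 (18.96 in Ccrl2), and Laptm5 the same 19.39 in CD163, Ccrl2 and Trem2. Whether such repeated values mark an upper limit for a gene was not tested, so they are weak evidence of equal expression. Across the 2763 genes measured in both libraries the values had a Pearson correlation of 0.74, over genes of 1 pair of arrays, which are not independent replicates.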

How the data were processed

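The deposited values are log2 intensities from Clariom S mouse arrays, made by the authors with robust multichip average (RMA), per the labels' protocols; GeneSpring is named there too. Affymetrix Expression Console is in the submitters' processing notes. For RMA settings and annotation build: not given in the sources used here. Of 28846 probe sets, 6640 were controls; 19572 had 1 gene symbol, 0 several and 2634 none, and all 19572 matched the GRCm38.p6 gene table by gene number. For 55 genes with several probe sets the brightest on average across all 4 libraries was taken. Scan batch was not analysed here.

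The members, the 39 gene lists (795 genes, 718 with a probe set) and the naming rule were chosen with earlier results of these data known. Named were sort markers, the 15 largest differences each way, defining members of marker lists, up to 6 members of each list, and the 6 brightest near-equal genes. Chosen after their values were seen were Lyz2, Ptprc, Junb, Fosl1, Fosl2, Egr3, Spi1, Vsig4, Clec4d, Clec4e, Myd88, Il1b, Rel, Nr4a2, Lef1, Klf2, Igfbp4, Prf1, Cd5, Cd6, Zap70, Chil3, Vcan, Fcna, Cd209f, Cd209g, Fth1, Ciita, Cd80, H2-DMa, H2-DMb1, H2-DMb2, H2-Ob and Rpl37, and so was the bright-gene background. No test, SD or p-value could be had. Computation used Python 3.11.15, numpy 2.4.6 and pandas 2.3.3. The calling rule was run on simulated data built from the Ccrl2 and Trem2 libraries, with changes added only to genes well above the ceilings. This did not cover dim genes or the higher ceilings of the pair.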

Additional observations from a re-analysis of the deposited data

How the results depend on the processing

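Counts of genes higher in CD74 and in CD163 were 583 and 1130. They were 1125 and 978 after quantile normalization of the 4 columns, 883 and 807 after that of the CD74 and CD163 columns, 874 and 879 after centring on genes measured in all 4 libraries, 2255 and 2998 with no ceiling, 354 and 655 where both values had to pass their ceilings, 1023 and 1995 with dim values as deposited, 1070 and 1732 at 1.5-fold and 188 and 499 at 4-fold. Calls toward CD74 made up 52.2%, 49.9%, 42.9%, 35.1%, 33.9%, 38.2% and 27.4% of calls under the last 7. The median difference over measured genes, with dim values raised to the ceiling, was -0.09, and -0.47 with them as deposited. Of 249 genes named by the rule, 200 stayed on the same side of the 2-fold threshold under all 6 alternatives run on single genes. The same held for 29 of 39 list medians. Direction was compared only where the main or the alternative difference reached 2-fold. Reversed were Pcbp2, at 1.05 and 1.04 after the 4-column and the 2-column quantile normalization, and Pfn1, at 1.12 after the latter. The cause was not tested. The median deposited difference over all genes was -0.05, and 0.23 after centring on genes measured in all 4 libraries. The high background of both arrays limits what can be said of dim genes: 13663 genes were below both ceilings. No paired analysis was possible because each population had 1 array. Background correction and slide could not be varied from the deposited values, and leaving out a replicate was not possible.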

Other observations

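Of 23 cell adhesion genes, 5 were higher in CD74 and 4 higher in CD163 (6 and 3 after quantile normalization of the 4 columns). Itga4, the alpha 4 integrin gene used by lymphocytes and monocytes, had 12.72 in CD74 and 9.51 in CD163, and Itgal, a chain of LFA-1, had 7.98 against 5.18, below the ceiling. Itgb5, a subunit of an integrin that binds dying cells through bridging proteins, ran the other way, below the ceiling in CD74 (5.07) and at 10.28 in CD163. Matrix and growth factor genes gave 5 of 24 higher in CD163 and 0 in CD74 (median -0.57, bounded 0.00, with 11 measured in either). The share called toward CD163 was 5.79% over all genes and 50.8% over bright genes. The 5 included Timp2, a protease inhibitor gene (15.79 against 7.21), Tgfbi (16.10 against 8.69) and Igf1 (12.84 against 5.62, below the ceiling).

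Metabolic and cycle genes were mostly alike or dim. Of 24 glycolysis and hypoxia genes, 3 were higher in CD163, with Pfkfb3, a regulator of glycolytic flux, at 10.57 against 5.68, below the ceiling, and after quantile normalization 1 was higher in CD163 and 3 in CD74. Of 37 oxidative phosphorylation genes, 1 was higher in CD74 and 3 in CD163, and 4 and 2 after quantile normalization. Pcna, the DNA replication clamp gene, had 11.75 in CD74 and 16.12 in CD163, with 17.54 in Ccrl2 and 16.75 in Trem2, while the proliferation gene Mki67 had 6.14, below the ceiling, and 7.55. Among class I genes, H2-K1 and B2m were higher in CD74 (17.43 against 16.23 for H2-K1) and Pdia3 and Calr, chaperone genes of peptide loading, were higher in CD163 (12.34 against 9.49 and 14.24 against 12.11). Of 2634 probe sets without a gene symbol, 94 passed the 2-fold rule toward CD74 and 138 toward CD163.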
